A study of Homo sapiens with 12 samples.

Results

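The interferon-stimulated antiviral effector genes described here are 42 genes taken by symbol from a fixed list, and all 42 were found among the 25370 genes of the count table. They were followed in 12 RNA-seq libraries of T47D, a human breast carcinoma line that expresses the estrogen receptor and the only cell line used. All cells were kept in medium with 5% charcoal-stripped serum for 48 hours and then without serum for 24 hours. The 4 groups of 3 libraries (replicates a, b and c) received vehicle, 10 nM anastrozole, 0.1 nM E2, or both agents together at these doses (anastrozole plus E2). Anastrozole blocks aromatase, the enzyme that makes estrogens from androgens, without being a steroid, and E2 is 17β-estradiol, the main ligand of the estrogen receptor ERα. The labels give 12 hours of treatment and the methods of the study give 24 hours. The design addresses whether anastrozole acts on the genes of these cells in the same way as E2, and what the combination does. The 3 libraries of a group are described as triplicates. The methods speak of independent experiments for gene expression in general without naming these libraries, so that separate cultures are not stated for them. The p-values rest on the spread between these libraries, which may be technical. The test estimates that spread with information shared across genes. A very small p-value thus does not measure the spread of that gene alone.

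The libraries held 9914253 to 17009776 reads on genes (median 13538621), and 3 counts, taken as the floor of detection, corresponded to 0.177 to 0.303 CPM (counts scaled to the TMM-normalized size of the library, the unit of all levels below). The floor covers counting error only. Of the marker lists, the 8 luminal epithelial genes (ESR1, PGR, GATA3, FOXA1, KRT8, KRT18, KRT19 and EPCAM) summed to 10149 to 10274 CPM in the vehicle libraries, above all others, and to 9224 to 9981 CPM with anastrozole, 9627 to 9857 CPM with E2 and 9872 to 10072 CPM with both. Of these 8, PGR fell with anastrozole (-0.13 on the log2 scale), ESR1, FOXA1, KRT19 and KRT8 fell with E2 (between -0.16 and -0.10) and 0 were called with both, and their part in the results below was not tested. The 8 leukocyte genes summed to 57.6 to 71.3 CPM, most of it from CD74, and PTPRC, the pan-leukocyte gene, had a mean of 0.0778 CPM with vehicle. CD68, a lysosomal gene of macrophages and many other cells, was the one leukocyte gene called against vehicle, at 3.71 ± 0.622 CPM in vehicle cells (SD, n = 3) against 6.003 ± 0.986 CPM after anastrozole and 5.44 ± 0.363 CPM after E2, and its part in the results below was not tested. The 4 endothelial genes summed to at most 0.622 CPM and the 3 basal genes to at most 2.88 CPM. The 5 fibroblast genes summed to at least 80.2 CPM in each library, of which COL1A1 made up nearly the whole and COL1A2 and DCN had means of 0 and 0.0782 CPM with vehicle.

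Interferons are cytokines that cells release on viral infection. Type I and type III interferons act through the receptor-bound kinases JAK1 and TYK2 on a factor that contains IRF9 and binds the interferon-stimulated response element (ISRE) in the promoters of antiviral genes. Type II interferon acts at another element, the gamma-activated site (GAS). Many of these genes are also transcribed at a low level in epithelial cells that receive no interferon. The proteins block viruses at different steps, from entry (IFITM) and nuclear or cytoplasmic trapping (MX) to the reading of viral RNA (RNA sensors), its destruction (OAS) or its translation (IFIT), and conjugation of the ubiquitin-like protein ISG15.

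Promoter sequences of RefSeq (GRCh38.p14, 250 bases before to 50 bases after each start site) were matched for 36 of the 42 genes, and MX2, IFIT2, IFITM2, OAS2, OASL and TRIM22 had no entry. The ISRE letters GAAANNGAAA occurred on either strand in the promoters of 26 of the 36 (72.2%), against 4.38% of the 27305 genes of the promoter table. The GAS letters TTCNNNGAA occurred in 10 of the 36 (27.8%), against 9.38% of all genes, and a GAS match may overlap an ISRE match. The palindromic estrogen response element GGTCANNNTGACC occurred in 0 of the 36 and in 0.0733% of all genes, which says only that these letters are not in these 300 bases. A match is a description of the sequence and does not show that a factor binds there. The windows below carry 1 ISRE match each in capitals and were chosen with the values of the genes known. They are shown for the genes with a match that passed the test in at least 5 of the 7 comparisons (MX1, IFI6, OAS3, IFIT1, ISG15 and IFITM1), for BST2 and SAMD9, which fell with all 3 treatments, for PARP9, whose promoter is shared with DTX3L on the opposite strand, and for HERC5, the one gene that rose with E2. The windows of IFIT1, IFI6, BST2 and ISG15 hold a second ISRE match, left in lower case where it does not overlap the first. Each is read 5′ to 3′ on the strand of the gene.
MX1, chr21:41431844-41431873, gene on the plus strand: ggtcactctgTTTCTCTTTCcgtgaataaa
IFIT1, chr10:89392482-89392541, gene on the plus strand: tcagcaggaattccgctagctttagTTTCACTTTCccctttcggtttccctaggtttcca
IFI6, chr1:27672273-27672332, gene on the minus strand: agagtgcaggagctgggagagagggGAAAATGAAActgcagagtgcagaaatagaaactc
BST2, chr19:17405726-17405785, gene on the minus strand: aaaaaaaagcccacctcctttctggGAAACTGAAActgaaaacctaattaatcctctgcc
SAMD9, chr7:93118081-93118140, gene on the minus strand: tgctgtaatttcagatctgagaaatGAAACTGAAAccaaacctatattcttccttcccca
HERC5, chr4:88457020-88457079, gene on the plus strand: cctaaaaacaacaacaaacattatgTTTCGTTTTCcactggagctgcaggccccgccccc
ISG15, chr1:1013380-1013409, gene on the plus strand: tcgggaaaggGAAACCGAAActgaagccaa
IFITM1, chr11:313990-314019, gene on the plus strand: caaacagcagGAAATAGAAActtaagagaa
OAS3, chr12:112938321-112938350, gene on the plus strand: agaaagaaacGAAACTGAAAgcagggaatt
PARP9, chr3:122564322-122564351, gene on the minus strand: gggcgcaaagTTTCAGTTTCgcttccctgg
The last base of the match lay at position -107 relative to the start site for IFIT1, -187 for MX1 (from the more downstream of its start sites), -106 for IFI6, -121 for BST2, -127 for SAMD9, -65 for HERC5, -98 for ISG15, -31 for IFITM1, -134 for OAS3 and -32 for PARP9. In MX1, IFIT1, HERC5 and PARP9 the element shown runs in the reverse orientation, so that it reads as TTTC repeats on the strand of the gene. MX1, IFI6, HERC5, IFITM1 and OAS3 have further ISRE matches outside the windows shown. That of MX1 lies 11 bases after its more upstream start site and runs in the forward orientation.

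The genes as a group were lower in all 3 treated groups than in vehicle. The list of 42 was chosen with earlier results of these data known, so that its shares describe the list and are not an independent test of it. Of the 42 genes, 25 fell and 0 rose with anastrozole, where 2.27% of the 21132 genes tested fell and 1.4% rose (edgeR's quasi-likelihood test, Benjamini-Hochberg adjusted p under 0.05 over all genes tested). With E2, 20 of the 42 fell and 1 rose (HERC5), against 5.95% and 6.06% of all genes. With anastrozole plus E2, 18 fell and 0 rose, against 2.33% and 2.71% of all genes. The median log2 fold change of the 42 genes against vehicle was -0.31 with anastrozole, -0.23 with E2 and -0.23 with anastrozole plus E2, while the median of all genes was 0 in each comparison. The log2 fold change lay below 0 for 40, 36 and 39 of the 42 genes in this order (47.2%, 47.1% and 46.9% of all genes), and 31, 28 and 30 had an unadjusted p under 0.05 (15.1%, 22.9% and 15% of all genes). The numbers over all genes depended on single libraries, and with anastrozole more so than those over the 42. With anastrozole, 776 genes were called in all, against 287 without vehicle replicate a, 191 without vehicle replicate c, 246 and 301 without anastrozole replicates a and b and 1651 without anastrozole replicate c, while 21 to 24 of the 42 were called in these fits. With anastrozole plus E2 the 1065 genes became 682 and 686 without its replicates b and c, while 14 to 18 of the 42 were called without each library. With E2 the 2537 genes became 1741 without vehicle replicate c and 2808 without vehicle replicate b, and 16 to 19 of the 42 were called without each library. The 3 comparisons share the vehicle libraries. Fewer cells that transcribe a gene and less RNA per cell cannot be told apart in such bulk libraries.

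**Figure D1:**
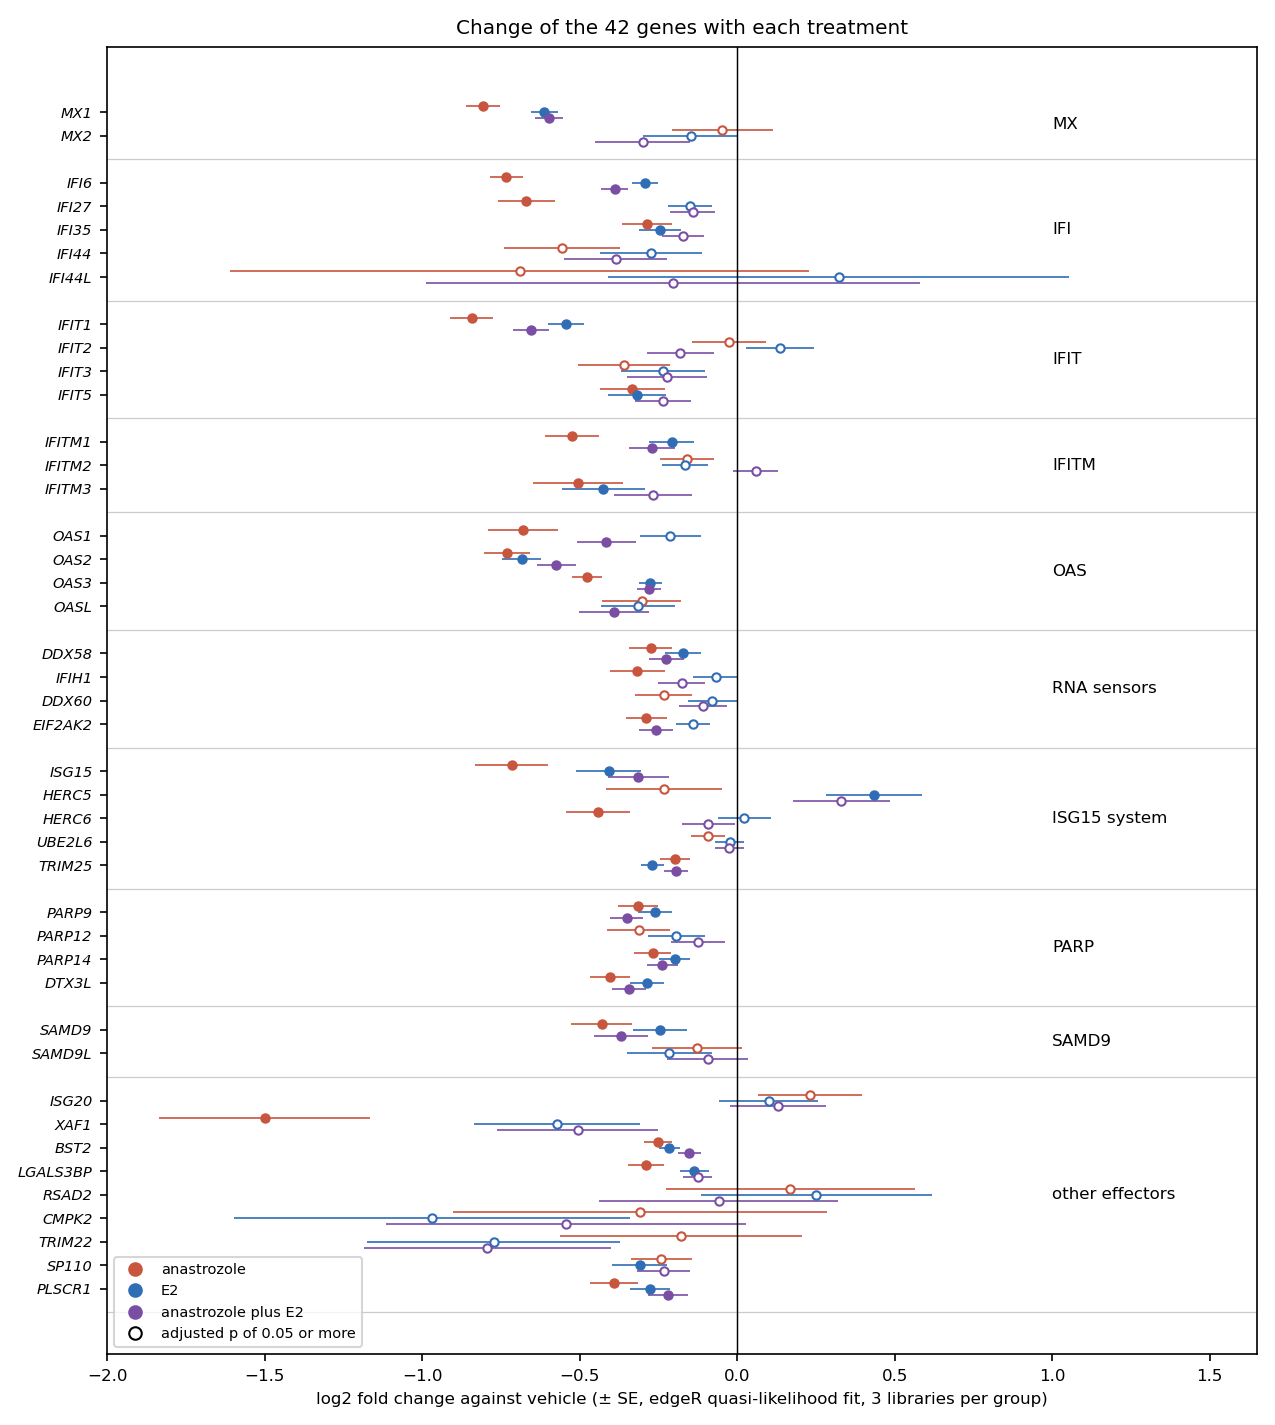
Log2 fold change against vehicle (x axis, with bars of ± 1 SE from edgeR's quasi-likelihood fit on 3 libraries per group) for each of the 42 genes (y axis, grouped by subfamily) with anastrozole (red), E2 (blue) and anastrozole plus E2 (purple). Filled points have an adjusted p under 0.05, and all of these lie left of 0 except HERC5 with E2.

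The same shift was seen in the libraries themselves. All 3 anastrozole libraries lay below all 3 vehicle libraries for 31 of the 42 genes (9.07% of all genes), all 3 E2 libraries for 24 (12.4% of all genes) and all 3 libraries of anastrozole plus E2 for 26 (8.83% of all genes). For 19 of the 42 genes each of the 9 treated libraries lay below each of the 3 vehicle libraries, which held for 2.44% of all genes. The vehicle group had the highest mean of the 4 groups for 35 of the 42 genes, and the anastrozole group had the lowest mean for 31. By gene, 15 of the 42 fell against vehicle with all 3 treatments (0.606% of all genes did), 6 changed with 2 (3.71% of all genes), 7 with 1 (10%) and 14 with 0 (85.2%).

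The number of calls depended on the test. With limma-voom, 6 of the 25 genes kept the fall with anastrozole (MX1, IFI6, IFIT1, OAS1, OAS2 and OAS3), 13 of the 21 kept the change with E2 and 8 of the 18 kept that with anastrozole plus E2, and with DESeq2's test 14 of the 25 kept the fall with anastrozole, 10 having no adjusted p. The same test kept 14 of the 21 with E2, 2 having no adjusted p, and 13 of the 18 with anastrozole plus E2. The calls it lost were those of IFI35 with anastrozole, of DDX58, IFIT5, IFITM1, LGALS3BP and SAMD9 with E2, and of DDX58, IFITM1, ISG15, OASL and PLSCR1 with anastrozole plus E2. When each library was left out in turn, 19 of the 25 (anastrozole), 11 of the 21 (E2) and 12 of the 18 (anastrozole plus E2) kept their call in all 6 fits. The log2 fold changes of all genes were correlated with the GC content of their exons (Spearman's rho across 10814 genes -0.53 with anastrozole, -0.55 with E2 and -0.03 with anastrozole plus E2). For the 42 genes, GC content predicted a shift of between -0.13 and 0.08 on the log2 scale with anastrozole and between -0.13 and 0.11 with E2. After the trend was removed, 26, 16 and 18 of the 42 genes were called in the 3 comparisons, with medians of -0.35, -0.26 and -0.23, against 1.36%, 3.53% and 2.66% of all genes called lower. DDX60, IFI44 and PARP12 gained a call with anastrozole in these fits, and EIF2AK2 one with E2.

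The genes differed widely in their level before treatment. On the scale of vehicle CPM per kilobase of the canonical transcript, which allows levels to be compared between genes, BST2 (tetherin, which holds budding virus at the cell surface) was highest at 279, followed by IFI6 (a mitochondrial and endoplasmic reticulum protein that limits apoptosis and flavivirus replication) at 175 and UBE2L6 (the E2 enzyme of ISG15 conjugation) at 75. MX1 stood at 50.05, IFITM1 at 48.4, IFI27 at 43.6, LGALS3BP at 42.7 and OAS3 at 33.95. At the other end were XAF1 at 0.663, TRIM22 at 0.379, RSAD2 at 0.268, CMPK2 at 0.1604 and IFI44L at 0.0399. IFI44L had between 0 and 9 counts per library and lay at or under 3 counts in 9 of the 12 libraries, CMPK2 had 2 to 9 counts, TRIM22 had 5 to 15 and RSAD2 had 10 to 22, so that changes in these 4 genes were hardly measurable at this depth. All 42 genes passed the only filter, a count above 0 in at least 1 library.

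**Figure D2:**
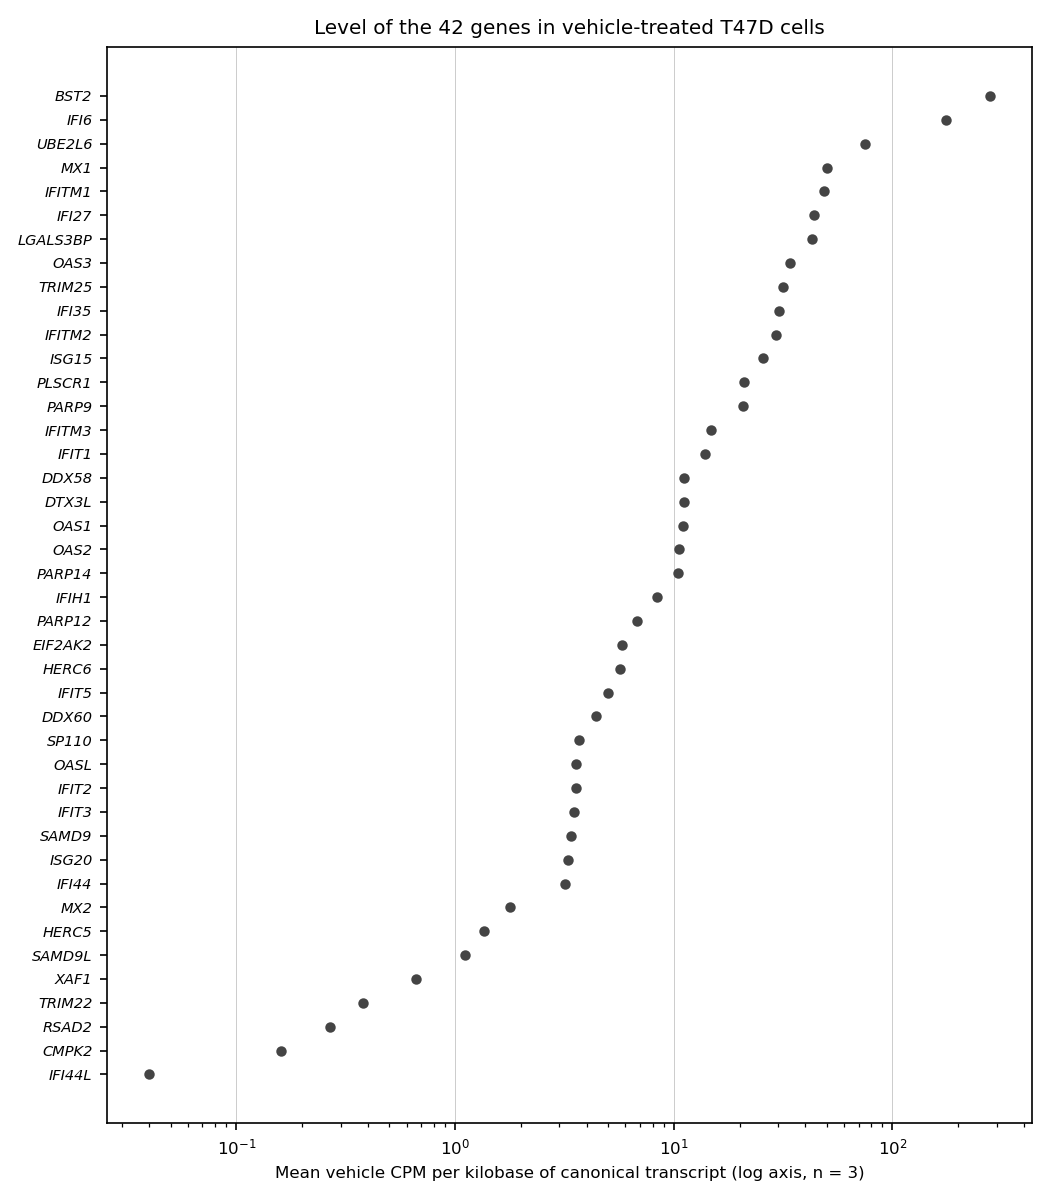
Mean level of the 42 genes with vehicle (n = 3) as CPM per kilobase of canonical transcript on a log axis. The levels run from 0.0399 for IFI44L to 279 for BST2.

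MX1 (ENSG00000157601, chromosome 21 from 42791947 to 42841998 of GRCh37), a dynamin-like GTPase that traps viral nucleocapsids, fell in all treated groups and most with anastrozole. Its level in replicates a, b and c, the order used throughout, was 136, 143 and 138 CPM in the vehicle libraries, 76.7, 77.9 and 83.95 CPM in those with anastrozole, 94.4, 89.1 and 89.6 CPM in those with E2 and 89.4, 89.7 and 96.6 CPM in those with both agents. The vehicle libraries stood apart from all others, the anastrozole libraries lay below both groups that received E2, and those 2 groups overlapped. The log2 fold change against vehicle was -0.81 with anastrozole, -0.61 with E2 and -0.60 (SE 0.04, adjusted p = 1.5e-39) with anastrozole plus E2, and all 3 passed under every alternative and with each library left out. TMPRSS2, read from the other strand, shares 3.13% of the exon bases with MX1, and the strand setting of the counting is not given in the sources used here. MX2, its paralog that blocks retroviral import into the nucleus, had means of 6.104 ± 0.348 (SD, n = 3) in vehicle, 5.91 ± 0.812 in anastrozole, 5.46 ± 0.6098 in E2 and 4.94 ± 0.318 CPM in combination-treated cells and did not pass the test in any comparison.

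**Figure D3:**
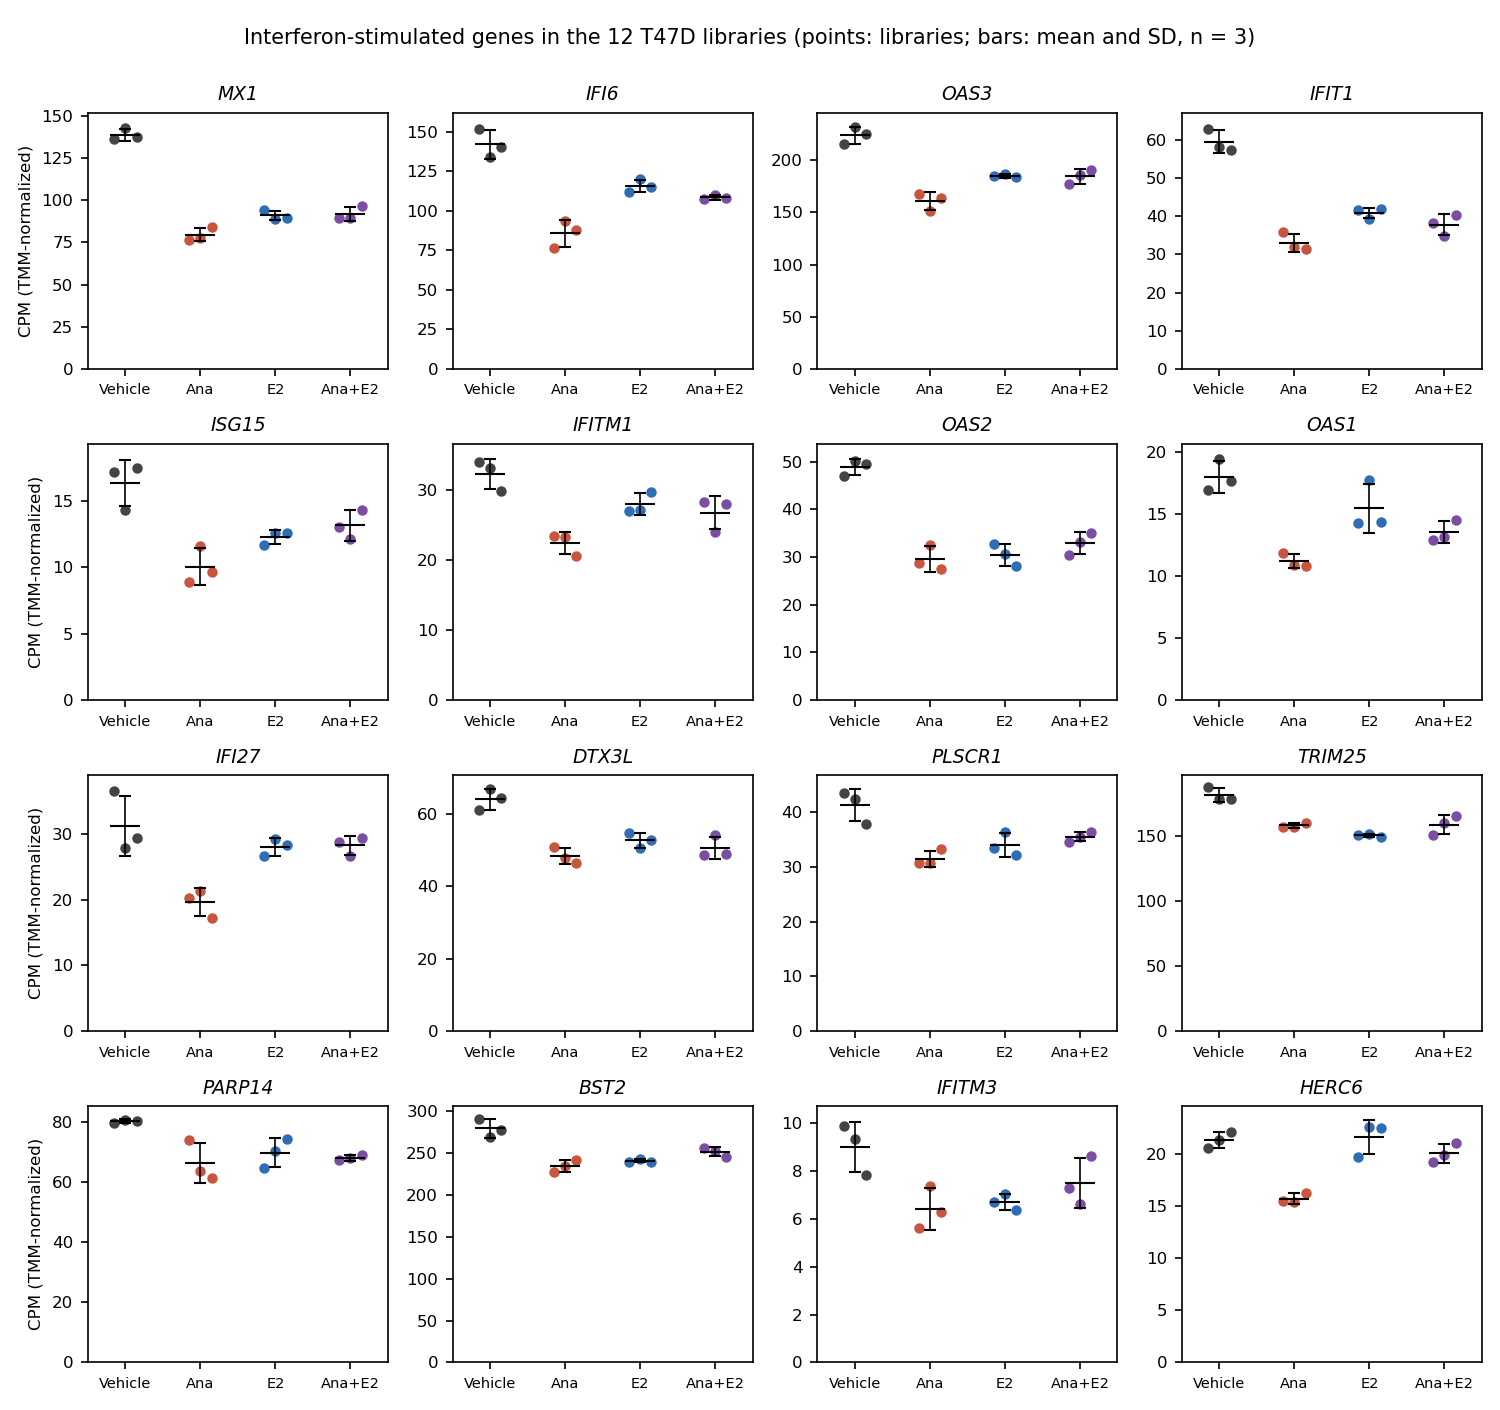
TMM-normalized CPM (y axis, from 0) of 16 of the genes in each library (points) of the 4 groups (x axis; Ana, anastrozole), with bars for the mean and SD of 3 libraries. The vehicle libraries are the highest for MX1, IFI6, OAS3, IFIT1 and OAS2, and the anastrozole libraries lie apart below the others for IFI27 and HERC6.

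Among the 5 IFI genes, 3 fell with anastrozole, 2 with E2 and 1 with anastrozole plus E2, with medians of -0.67, -0.25 and -0.20 on the log2 scale. IFI6 (ENSG00000126709, chromosome 1 from 27992575 to 27998723) had 152, 134 and 140.2 CPM in vehicle cells, 76.5, 93.5 and 87.6 CPM after anastrozole, 112, 119.9 and 115 CPM after E2 and 107, 110.1 and 108 CPM after the combination. Each group of treated libraries lay below vehicle, and the anastrozole libraries were the lowest, without overlap with any other group. The log2 fold change was -0.73 (SE 0.05, adjusted p = 6.6e-40) with anastrozole, -0.29 (adjusted p = 1.3e-10) with E2 and -0.39 (adjusted p = 3.4e-17) with anastrozole plus E2. IFI27 (ENSG00000165949, chromosome 14 from 94571182 to 94583032), a small mitochondrial protein used as a blood marker of the interferon response, had 36.5, 27.8 and 29.3 CPM in the vehicle libraries, 20.3, 21.3 and 17.3 CPM in those with anastrozole, 26.6, 29.2 and 28.2 CPM in those with E2 and 28.8, 26.6 and 29.4 CPM in those with both agents. Its anastrozole libraries lay below all others, while the E2 libraries and those of anastrozole plus E2 overlapped the vehicle libraries. Accordingly it fell with anastrozole, by a log2 fold change of -0.67 (SE 0.09, adjusted p = 1.4e-10), and the changes with E2 (-0.15) and anastrozole plus E2 (-0.14) did not pass.
IFI35, which binds the transcriptional partner NMI, had 35.6, 35.4 and 35.9 CPM in vehicle cells, 28.7, 30.4 and 28.7 CPM after anastrozole, 32.9, 27.6 and 30.2 CPM after E2 and 33.9, 32.9 and 27.9 CPM after the combination. The vehicle libraries were closely grouped and above all others, and the treated groups overlapped. It fell with anastrozole (-0.29 (adjusted p = 0.017)) and E2 (-0.25 (adjusted p = 0.0041)), and it lost both calls when the GC trend was removed. The call with anastrozole was also lost without vehicle replicate a or c or anastrozole replicate a, and that with E2 without E2 replicate b. IFI44, a cytoplasmic protein that forms aggregates with infection, had 5.36 ± 0.676 CPM with vehicle and 3.68 ± 0.574 CPM with anastrozole and passed in no comparison, and its paralog IFI44L was near the floor.

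The IFIT proteins bind the ends of viral RNA and block its translation, and the 4 genes lie side by side on chromosome 10. IFIT1 (ENSG00000185745, chromosome 10 from 91152303 to 91166244) had 62.9, 58.2 and 57.2 CPM in the vehicle libraries, 35.8, 31.9 and 31.3 CPM in those with anastrozole, 41.6, 39.2 and 41.8 CPM in those with E2 and 38.2, 34.7 and 40.3 CPM in those with both agents. The vehicle libraries were highest without overlap, the anastrozole libraries lay below the E2 libraries, and the libraries of anastrozole plus E2 overlapped both. Its log2 fold change, -0.84 (SE 0.07, adjusted p = 5.0e-30) with anastrozole, was the largest fall among those of the 42 genes above 3 CPM with vehicle, and it was -0.54 (adjusted p = 8.6e-19) with E2 and -0.65 (adjusted p = 5.8e-28) with anastrozole plus E2. IFIT5, which binds RNA with 5′ phosphates, had 17.7, 21.97 and 21 CPM in vehicle cells, 16.01, 14.96 and 17.2 CPM after anastrozole, 16.1, 16.6 and 16.04 CPM after E2 and 18.6, 18.2 and 14.7 CPM after the combination.
The anastrozole and E2 libraries of IFIT5 lay below vehicle, and those of anastrozole plus E2 overlapped it. It fell by a log2 fold change of -0.33 (adjusted p = 0.037) with anastrozole and -0.32 (adjusted p = 0.0086) with E2, and both calls were lost when vehicle replicate b or c was left out, that with anastrozole also without its replicate a or b and with edgeR's filterByExpr. IFIT3 had 8.36 ± 1.253 CPM with vehicle and 6.55 ± 0.462, 7.15 ± 0.655 and 7.18 ± 0.778 CPM in the treated groups in the same order, and IFIT2 had 12.1 ± 1.24 CPM with vehicle and 11.7 ± 2.095, 13.2 ± 0.133 and 10.7 ± 0.935 CPM. Neither passed against vehicle. The log2 fold changes of IFIT1 and IFIT2 with anastrozole were thus -0.84 and -0.03, although the genes belong to one cluster. LIPA, on the other strand, overlaps the exons of IFIT2 (1.5% of their bases) and IFIT3 (1.86%).

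The 3 IFITM genes on chromosome 11 encode membrane proteins that stop viruses from fusing with endosomes. IFITM1 (ENSG00000185885, chromosome 11 from 310041 to 315272) had 33.97, 33.1 and 29.9 CPM in the vehicle libraries, 23.5, 23.2 and 20.6 CPM in those with anastrozole, 27.1, 27.1 and 29.8 CPM in those with E2 and 28.3, 24.01 and 27.9 CPM in those with both agents. The anastrozole libraries lay below all others, and each treated group lay below vehicle, the E2 group by a narrow margin. The log2 fold change was -0.52 (SE 0.09, adjusted p = 1.0e-06) with anastrozole, -0.21 (adjusted p = 0.03) with E2 and -0.27 (adjusted p = 0.0068) with anastrozole plus E2. The call with E2 was lost after removal of the GC trend (-0.12), with all 12 libraries in one fit and without vehicle replicate a or b or E2 replicate a or b, and that with anastrozole plus E2 without vehicle replicate a or replicate b of anastrozole plus E2. IFITM3, with 9.87, 9.35 and 7.86 CPM in vehicle cells, 5.63, 7.38 and 6.28 CPM after anastrozole, 6.703, 7.03 and 6.39 CPM after E2 and 7.28, 6.61 and 8.65 CPM after the combination, was less abundant.
All anastrozole and E2 libraries of IFITM3 were below vehicle, and 1 library of anastrozole plus E2 was not. It fell with anastrozole (-0.50 (adjusted p = 0.021)) and E2 (-0.42 (adjusted p = 0.016)), but lost both calls after removal of the GC trend, without vehicle replicate a and without vehicle replicate b. The call with anastrozole was also lost without anastrozole replicate a and with edgeR's filterByExpr, and that with E2 without E2 replicate c. IFITM2 stood at 29.5 ± 1.94 CPM in vehicle cells, 26.2 ± 2.64 CPM after anastrozole, 26.3 ± 0.875 CPM after E2 and 30.7 ± 1.07 CPM after the combination and did not pass against vehicle. The 3 genes share much of their sequence, and since reads mapped to several places were not assigned to genes their separate levels are uncertain.

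The OAS genes encode enzymes that sense double-stranded RNA and make 2′-5′ oligoadenylates, the activators of RNase L. Of the 4 genes, 3 fell with anastrozole, 2 with E2 and 4 with anastrozole plus E2. OAS3 (ENSG00000111331, chromosome 12 from 113375856 to 113414265), the largest enzyme, had 215, 232 and 225 CPM in the vehicle libraries, 168, 151 and 164 CPM in those with anastrozole, 185, 187 and 184 CPM in those with E2 and 177, 186 and 191 CPM in those with both agents. OAS2 (ENSG00000111335, chromosome 12 from 113416200 to 113449528) had 46.99, 50.03 and 49.5 CPM in vehicle cells, 28.7, 32.5 and 27.4 CPM after anastrozole, 32.6, 30.7 and 28.1 CPM after E2 and 30.4, 33.2 and 35.1 CPM after the combination. For both genes all 9 treated libraries lay below vehicle, and for OAS3, but not OAS2, the anastrozole libraries also lay below the E2 libraries. The log2 fold changes of OAS3 were -0.48 (SE 0.05, adjusted p = 9.9e-21), -0.28 (adjusted p = 3.6e-12) and -0.28 (adjusted p = 6.1e-11) with anastrozole, E2 and both, and those of OAS2 were -0.73 (SE 0.07, adjusted p = 2.6e-19), -0.68 (adjusted p = 8.2e-25) and -0.57 (adjusted p = 1.2e-17).
OAS1 (ENSG00000089127, chromosome 12 from 113343661 to 113371024) had 16.9, 19.4 and 17.7 CPM in the vehicle libraries, 11.8, 10.9 and 10.8 CPM in those with anastrozole, 14.3, 17.7 and 14.3 CPM in those with E2 and 12.9, 13.2 and 14.5 CPM in those with both agents. The anastrozole libraries were the lowest and the libraries of anastrozole plus E2 lay between them and vehicle, while 1 of the E2 libraries reached the vehicle range. OAS1 fell with anastrozole (-0.68 (SE 0.11, adjusted p = 6.6e-07)) and with anastrozole plus E2 (-0.42 (adjusted p = 6.4e-04)), and the change with E2 was -0.21 and did not pass. OASL, which lacks the enzyme activity, had 11.6 ± 2.23 CPM with vehicle and 8.88 ± 0.771 CPM with anastrozole plus E2 (log2 fold change -0.39, adjusted p = 0.014), a call lost without vehicle replicate c (-0.23) or without replicate a or b of anastrozole plus E2.

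ISG15 is a ubiquitin-like protein that is attached to newly made proteins by UBE2L6 with the ligase HERC5, and TRIM25 activates the sensor RIG-I. ISG15 (ENSG00000187608, chromosome 1 from 936518 to 949920) had 17.2, 14.4 and 17.5 CPM in vehicle cells, 8.87, 11.6 and 9.69 CPM after anastrozole, 11.7, 12.6 and 12.6 CPM after E2 and 13.02, 12.1 and 14.4 CPM after the combination. All treated libraries lay below vehicle, the highest of anastrozole plus E2 by less than the rounding of these values, and 1 of the anastrozole libraries, replicate b, lay closer to the E2 group than the other two. The log2 fold change was -0.72 (SE 0.12, adjusted p = 4.8e-07) with anastrozole, -0.41 (adjusted p = 0.0017) with E2 and -0.31 (adjusted p = 0.028) with anastrozole plus E2. The call with E2 was lost after removal of the GC trend, and that with anastrozole plus E2 without replicate a or c of vehicle or replicate a or b of anastrozole plus E2.
HERC5 (ENSG00000138646, chromosome 4 from 89378270 to 89427314) was higher with E2, with 5.18, 4.41 and 4.75 CPM in the vehicle libraries, 3.97, 4.04 and 4.19 CPM in those with anastrozole, 5.68, 7.62 and 5.83 CPM in those with E2 and 4.87, 7.24 and 6.005 CPM in those with both agents. All E2 libraries lay above and all anastrozole libraries below vehicle. Its rise on E2, by 0.43 (SE 0.15, adjusted p = 0.041) on the log2 scale, was lost with the GC trend removed, with all 12 libraries in one fit, with the replicate letter as a block, with limma-voom and without vehicle replicate b or c or E2 replicate b (0.27 in the last of these). The change with anastrozole was -0.23 and did not pass. HERC6 (ENSG00000138642, chromosome 4 from 89299891 to 89364249), a close relative of HERC5, had 20.6, 21.4 and 22.2 CPM in vehicle cells, 15.5, 15.5 and 16.3 CPM after anastrozole, 19.8, 22.6 and 22.6 CPM after E2 and 19.3, 19.9 and 21.1 CPM after the combination.
The anastrozole libraries of HERC6 lay apart below all others, and the other 3 groups overlapped. It fell with anastrozole, by a log2 fold change of -0.44 (SE 0.10, adjusted p = 0.0019), and its changes with E2 (0.02) and anastrozole plus E2 (-0.09) did not pass. TRIM25 had 187, 178 and 179 CPM in the vehicle libraries, 157, 157 and 160.2 CPM in those with anastrozole, 151, 152 and 149 CPM in those with E2 and 151, 159.9 and 166 CPM in those with both agents. It was lower in every treated library than in any vehicle library, with log2 fold changes with anastrozole, E2 and both of -0.20 (adjusted p = 0.0033), -0.27 (adjusted p = 2.1e-10) and -0.19 (adjusted p = 7.0e-05). The call of TRIM25 with anastrozole was lost without vehicle replicate a or anastrozole replicate b. UBE2L6, at 91.4 ± 4.37 CPM with vehicle and 85.7 ± 3.08, 89.9 ± 5.15 and 89.8 ± 2.58 CPM in the treated groups, passed in no comparison.

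The PARP genes encode ADP-ribosyltransferases, and DTX3L is the ubiquitin ligase that works as a pair with PARP9 and is transcribed from the same promoter in the opposite direction. Of these 4 genes, 3 fell with each of the 3 treatments. DTX3L (ENSG00000163840, chromosome 3 from 122283185 to 122294050) had 60.9, 66.7 and 64.3 CPM in vehicle cells, 50.7, 47.7 and 46.4 CPM after anastrozole, 54.6, 50.6 and 52.7 CPM after E2 and 48.6, 54.01 and 48.8 CPM after the combination. PARP9 (ENSG00000138496, chromosome 3 from 122246771 to 122283424) had 65.4, 64.5 and 59.3 CPM in the vehicle libraries, 54.1, 48.7 and 48.8 CPM in those with anastrozole, 55.2, 50.9 and 52.1 CPM in those with E2 and 49.6, 49.8 and 48.97 CPM in those with both agents. In both genes all 9 treated libraries lay below vehicle. The treated groups of DTX3L overlapped, while for PARP9 the libraries of anastrozole plus E2 lay below the E2 libraries and within the range of the anastrozole libraries. The log2 fold changes with anastrozole, E2 and both were -0.40 (adjusted p = 2.6e-07), -0.29 (adjusted p = 5.5e-06) and -0.34 (adjusted p = 2.1e-08) for DTX3L and -0.32 (adjusted p = 2.1e-04), -0.26 (adjusted p = 4.4e-05) and -0.35 (adjusted p = 1.2e-08) for PARP9. The first exons of the genes overlap on opposite strands over 1.56% of the exon bases of PARP9 and 2.41% of those of DTX3L.
PARP14, a large macrodomain protein, had 79.8, 80.9 and 80.6 CPM in vehicle cells, 74.2, 63.9 and 61.4 CPM after anastrozole, 64.8, 70.5 and 74.6 CPM after E2 and 67.4, 68 and 69.3 CPM after the combination. The vehicle libraries were closely grouped and above all others, whereas the anastrozole and E2 libraries were spread more widely. It fell with anastrozole (-0.27 (adjusted p = 8.3e-04)), E2 (-0.20 (adjusted p = 0.0011)) and anastrozole plus E2 (-0.24 (adjusted p = 9.6e-05)), the call with E2 being lost without E2 replicate a. PARP12, which stops viral translation, had 20.6 ± 1.796 CPM with vehicle and 16.6 ± 0.512, 17.9 ± 0.646 and 18.9 ± 1.74 CPM in the treated groups and did not pass against vehicle.

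SAMD9 and SAMD9L, neighbouring genes on chromosome 7, encode proteins that restrict poxviruses and growth. SAMD9 had 20.7, 24.6 and 23.8 CPM in the vehicle libraries, 17.5, 19.3 and 14.7 CPM in those with anastrozole, 19, 20.6 and 18.7 CPM in those with E2 and 16.4, 17.7 and 19.7 CPM in those with both agents. All treated libraries lay below vehicle, the highest E2 library by a narrow margin, and the treated groups overlapped. The log2 fold changes were -0.43 (adjusted p = 0.0016) with anastrozole, -0.24 (adjusted p = 0.038) with E2 and -0.37 (adjusted p = 8.4e-04) with anastrozole plus E2. The call with E2 was lost without vehicle replicate b or c, without E2 replicate a or c and with DESeq2's test and limma-voom. SAMD9L had 7.96 ± 0.579 CPM with vehicle and 7.24 ± 0.798, 6.86 ± 0.491 and 7.46 ± 0.173 CPM in the treated groups, and passed in no comparison.
The 4 RNA sensors had a median log2 fold change of -0.28 with anastrozole, -0.11 with E2 and -0.20 with anastrozole plus E2 (for the OAS genes -0.58, -0.30 and -0.40), and no test between the subfamilies was made. DDX58 (RIG-I), the helicase that detects RNA with 5′ triphosphates, had 50.3, 52.7 and 52.2 CPM in vehicle cells, 42.8, 43.2 and 42.4 CPM after anastrozole, 45.2, 44.2 and 48.5 CPM after E2 and 44.98, 47.5 and 40.3 CPM after the combination. Its treated libraries were all below vehicle, and it fell with anastrozole (-0.27 (adjusted p = 0.0049)), E2 (-0.17 (adjusted p = 0.025)) and anastrozole plus E2 (-0.22 (adjusted p = 0.0027)), the call with E2 being lost with all 12 libraries in one fit and without vehicle replicate b or c or E2 replicate a or b. The call with anastrozole was lost without vehicle replicate c, and that with anastrozole plus E2 without its replicate c. EIF2AK2 (PKR), the kinase that halts translation, fell with anastrozole, from 57.7 ± 3.63 to 47.3 ± 0.365 CPM (-0.29 (adjusted p = 0.0014)), and with anastrozole plus E2, to 48.4 ± 1.82 CPM (-0.26 (adjusted p = 1.7e-04)). IFIH1 (MDA5), the sensor of long double-stranded RNA, fell with anastrozole, from 29.9 ± 1.32 to 23.9 ± 2.82 CPM (-0.32 (adjusted p = 0.015)), a call that held in 1 of the 6 fits without a library. DDX60, at 26.6 ± 2.696 CPM with vehicle and 22.7 ± 1.49 CPM with anastrozole, passed in no comparison.

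Of the 9 remaining effectors, 4 fell with anastrozole, 4 with E2 and 2 with anastrozole plus E2. BST2 (ENSG00000130303, chromosome 19 from 17513748 to 17516439) had 291, 269 and 278 CPM in the vehicle libraries, 227, 235 and 242 CPM in those with anastrozole, 239, 243 and 239.9 CPM in those with E2 and 256, 253 and 246 CPM in those with both agents. PLSCR1, a scramblase that blocks virus entry, had 43.5, 42.4 and 37.9 CPM in vehicle cells, 30.6, 30.6 and 33.2 CPM after anastrozole, 33.4, 36.3 and 32.1 CPM after E2 and 34.6, 35.5 and 36.3 CPM after the combination. Each treated library of both genes lay below vehicle, and the means of the treated groups were closer to each other than to vehicle. The log2 fold changes with anastrozole, E2 and both were -0.25 (adjusted p = 1.3e-05), -0.22 (adjusted p = 3.4e-08) and -0.15 (adjusted p = 0.0015) for BST2 and -0.39 (adjusted p = 1.1e-04), -0.28 (adjusted p = 3.5e-04) and -0.22 (adjusted p = 0.016) for PLSCR1. The value of BST2 with E2 was -0.13 with the GC trend removed and still passed. The change of BST2 with anastrozole plus E2 was lost without vehicle replicate a or replicate c of anastrozole plus E2, and that for PLSCR1 without replicate a or b of either group.
LGALS3BP, a secreted glycoprotein that binds galectins, had 96.9, 92.5 and 92.4 CPM in the vehicle libraries, 74.4, 78.6 and 77.9 CPM in those with anastrozole, 83.9, 85.4 and 87.05 CPM in those with E2 and 86.4, 86.1 and 85.9 CPM in those with both agents. The vehicle libraries were the highest and the anastrozole libraries the lowest, without overlap with the others. It fell with anastrozole (-0.29 (adjusted p = 1.0e-04)) and E2 (-0.14 (adjusted p = 0.03)), and with the GC trend removed these values shrank to -0.18, which still passed, and -0.02, which did not. The call with E2 held in 1 of the 6 fits without a library (that without vehicle replicate b) and was lost with DESeq2's test, limma-voom and the replicate block. SP110, a nuclear body protein, fell with E2, from 22.8 ± 1.81 to 18.4 ± 0.245 CPM (-0.31 (adjusted p = 0.0058)), a call lost without vehicle replicate a. XAF1 (ENSG00000132530, chromosome 17 from 6658766 to 6678966), an antagonist of the apoptosis inhibitor XIAP, had 2.103, 2.05 and 2.65 CPM in vehicle cells, 0.649, 0.505 and 1.22 CPM after anastrozole, 1.104, 1.24 and 2.22 CPM after E2 and 1.42, 1.74 and 1.64 CPM after the combination. Its anastrozole libraries, with 9, 5 and 14 counts against 26, 27 and 34 with vehicle, lay below all vehicle libraries and overlapped only the E2 group. The log2 fold change with anastrozole, -1.5 (SE 0.33, adjusted p = 0.0011), was the largest of the 42 genes and rests on these few counts. ISG20, an exonuclease, was the only gene whose mean was lowest with vehicle, at 5.18 ± 0.698 CPM against 6.13 ± 0.498, 5.53 ± 0.439 and 5.65 ± 0.575 CPM with anastrozole, E2 and both, and passed in no comparison. RSAD2 (viperin), CMPK2 and TRIM22 were too low to judge.

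Genes that fell were found both with and without an ISRE match, and the share that fell was higher with a match for each treatment. With anastrozole, 18 of the 26 genes with a match and 6 of the 10 without fell, with median log2 fold changes of -0.37 and -0.28. With E2, 15 of the 26 fell and 1 rose, against 4 of the 10 that fell, with medians of -0.22 and -0.23. With anastrozole plus E2, 13 of the 26 and 3 of the 10 fell, with medians of -0.24 and -0.21. HERC6, XAF1 and OAS1, which fell with anastrozole, were among the genes without a match in these 300 bases, and IFIT3, IFI44 and ISG20, which passed in no comparison, were among those with one. No test of these shares was made.

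Anastrozole and E2 at these doses were then compared directly. Of the 42 genes, 9 were lower with anastrozole than with E2 and 0 were higher, against 0.705% and 0.62% of all genes, and the median log2 difference was -0.11. Among these 9, the largest differences were those of HERC5 at -0.66 (SE 0.17, adjusted p = 0.014), IFI27 at -0.51 (SE 0.09, adjusted p = 2.2e-06) and OAS1 at -0.46 (SE 0.11, adjusted p = 0.0049), followed by HERC6 at -0.46 (adjusted p = 4.3e-04) and IFI6 at -0.43 (adjusted p = 8.8e-16). For IFI27 and HERC6 the fall was seen with anastrozole and not with E2, and here the direct comparison passed as well. MX1 (-0.19 (adjusted p = 0.021)), OAS3 (-0.19 (adjusted p = 0.001)), IFIT1 (-0.29 (adjusted p = 0.012)) and IFITM1 (-0.31 (adjusted p = 0.023)) fell with both agents and lower with anastrozole. MX1 and IFITM1 passed in 1 of the 6 fits without a library, IFIT1 in 3 and HERC5, OAS1 and OAS3 in 4. MX1 and IFITM1 also lost the call with the replicate letter as a block, and MX1, IFITM1 and HERC5 with edgeR's filterByExpr. HERC6, IFI27 and IFI6 kept this call with each library left out, and the count of 9 dropped to 3 without anastrozole replicate b and to 4 without E2 replicate b. IFI27 and IFI6 passed with limma-voom. Over all genes, 280 were called, against 514 with the GC trend removed, 134 without anastrozole replicate b and 177, 107 and 124 without E2 replicates a, b and c.
For OAS2, BST2, PARP9, DTX3L and PARP14, which fell with both agents, the difference between anastrozole and E2 did not pass. The 95% interval of the log2 difference ran from -0.20 to 0.12 for OAS2, from -0.11 to 0.05 for BST2 and from -0.18 to 0.08 for PARP9. TRIM25, whose fall was numerically larger with E2, had a difference of 0.08 with an interval from -0.01 to 0.16.

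Adding E2 to anastrozole raised some of the genes. Compared with anastrozole alone, 7 of the 42 were higher with anastrozole plus E2 and 0 were lower, against 1.71% and 1.18% of all genes, and the median log2 difference was 0.13. All 3 libraries of anastrozole plus E2 lay above all 3 anastrozole libraries for 15 of the 42 genes (8.96% of all genes). The 7 were HERC5 (0.56 (adjusted p = 0.037)), IFI27 (0.52 (adjusted p = 1.3e-07)), ISG15 (0.40 (adjusted p = 0.025)), HERC6 (0.35 (adjusted p = 0.015)), IFI6 (0.34 (adjusted p = 9.9e-09)), MX1 (0.21 (adjusted p = 0.0074)) and OAS3 (0.19 (adjusted p = 0.0016)). IFI27 and IFI6 kept the call with each library left out, IFI27 also with limma-voom, while HERC5 and HERC6 kept it in 2 of the 6 fits, ISG15 and MX1 in 3 and OAS3 in 4. Across all genes the differences were correlated with GC content (Spearman's rho 0.57). ISG15 lost the call with the GC trend removed, while IFIT1 and PLSCR1 gained it. The count fell to 4 without anastrozole replicate a, to 3 without anastrozole replicate b and to 2 without replicate c of anastrozole plus E2. Over all genes, 612 were called, against 1706 without anastrozole replicate c and 234 to 348 without each of the other 5 libraries.
The combination was also compared with E2 alone, where the shares of the 42 genes called were near those of all genes. Compared with E2 alone, 1 gene was lower (IFIT2, -0.32 (SE 0.10, adjusted p = 0.035)) and 1 higher (IFITM2, 0.22 (SE 0.07, adjusted p = 0.026)) with anastrozole plus E2, against 3.51% and 3.23% of all genes. The median log2 difference was -0.01. Over all genes, 1424 were called, against 885 without E2 replicate c and 935 without replicate c of anastrozole plus E2, and 185 with the GC trend removed (0.445% lower and 0.431% higher), the differences being correlated with GC content (Spearman's rho across genes 0.69). IFIT2 kept its call in 1 and IFITM2 in 2 of the 6 fits without a library. Neither of the 2 calls held with limma-voom, with all 12 libraries in one fit or after removal of the GC trend (0.15 for IFITM2), and DESeq2's test gave no adjusted p for either. IFI6 was the one gene of the 42 called after removal of the GC trend. MX1, with a log2 difference of 0.01 between the groups, had an interval from -0.07 to 0.09, and OAS3, with -0.00, one from -0.07 to 0.06.

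**Figure D4:**
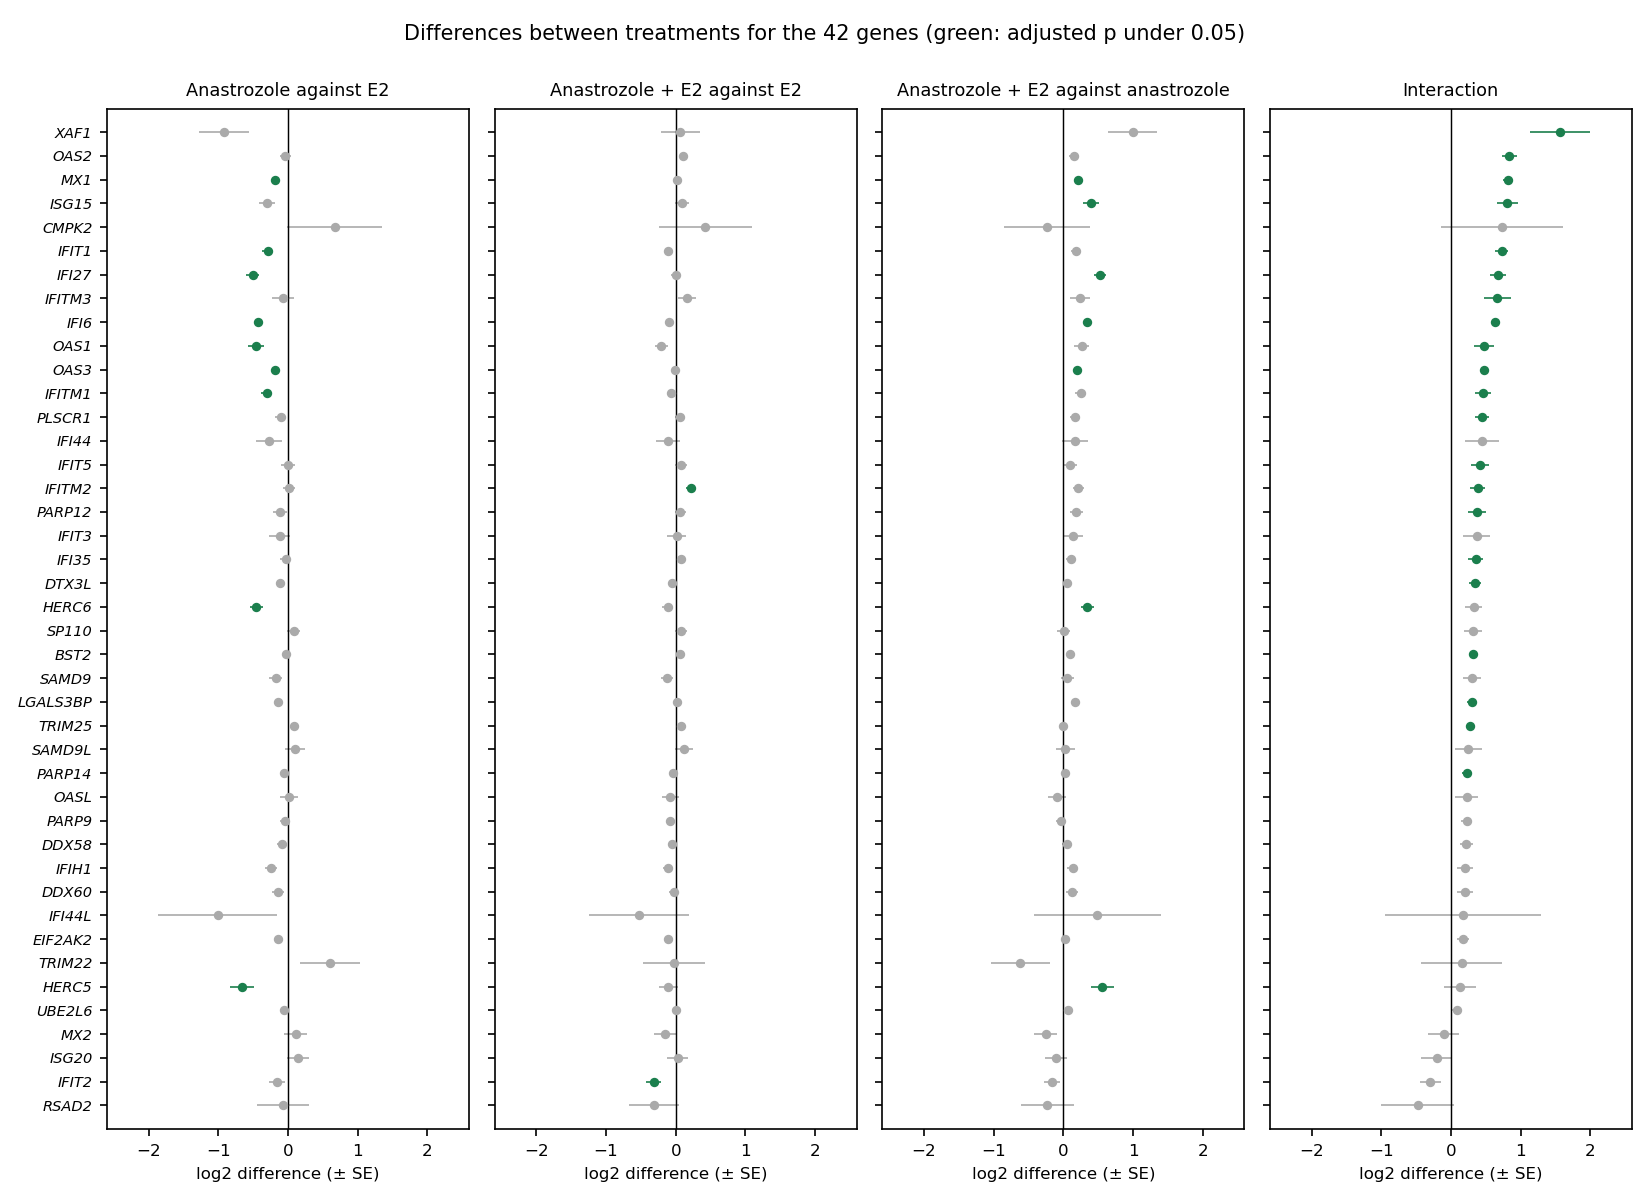
Log2 differences (x axes, with bars of ± 1 SE) of the 42 genes (y axis) for anastrozole against E2, anastrozole plus E2 against E2, anastrozole plus E2 against anastrozole, and the interaction. Green points have an adjusted p under 0.05, and they number 9, 2, 7 and 21 in the 4 panels, those of the interaction all right of 0.

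The change with anastrozole differed between cells without and with E2. The interaction, the log2 change with anastrozole in the presence of E2 minus that in its absence, was above 0 for 38 of the 42 genes with a median of 0.32, and 21 passed above 0 and 0 below, against 5.93% and 4.93% of all genes. It was 0.84 (SE 0.10, adjusted p = 4.2e-13) for OAS2, 0.82 (SE 0.07, adjusted p = 8.8e-31) for MX1, 0.81 (SE 0.15, adjusted p = 8.8e-06) for ISG15, 0.73 (SE 0.09, adjusted p = 9.1e-12) for IFIT1, 0.68 (SE 0.11, adjusted p = 7.6e-07) for IFI27 and 0.64 (SE 0.06, adjusted p = 1.9e-19) for IFI6. For MX1 these values combine a change of -0.81 without E2 with one of 0.01 in its presence, and for OAS2 -0.73 with 0.11. The vehicle libraries behind the falls against vehicle also enter the interaction, so that it is not independent of those falls. The 3 IFITM genes, 3 of the 4 OAS genes and 3 of the 4 PARP and DTX3L genes were among the 21, and 0 of the 4 RNA sensors and 0 of the 2 SAMD9 genes were. With each library left out, 14 of the 21 kept the call in all 12 fits, and 17 of the 21 passed with limma-voom. Across all genes the interaction was correlated with GC content (Spearman's rho 0.71), and after removal of the GC trend 20 of the 42 genes passed above 0, with a median of 0.37, against 1.21% of all genes (545 in both directions, from 2295 before). Of the 21, IFI35, IFITM1, IFITM2, IFITM3, LGALS3BP and PARP12 lost the call with that trend removed, so that 0 of the 3 IFITM genes kept it, and the value of LGALS3BP went from 0.30 to 0.09 and that of BST2, which still passed, from 0.31 to 0.16. DDX58, EIF2AK2, PARP9, SAMD9 and SP110 gained the call, with 0.34 for DDX58 and 0.49 for SAMD9, so that the division between the subfamilies was not the same in that fit, and no test between subfamilies was made.

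The genes upstream of these effectors were followed as lists. Of 10 interferon ligand genes, IFNA1, IFNA2, IFNE and IFNG had 0 counts in all 12 libraries, and the other 6 together reached at most 0.631 CPM in any library and did not pass the test against vehicle with any treatment. Among 6 receptor genes, 0 fell, and IFNGR2 rose with anastrozole plus E2 and did not pass with the single agents. Of 11 kinase and transcription factor genes, 2 fell with anastrozole, 4 fell and 1 rose with E2, and 1 fell and 2 rose with anastrozole plus E2. Of all genes, 2.27%, 5.95% and 2.33% fell and 1.4%, 6.06% and 2.71% rose in these comparisons. IRF9, part of the factor that binds the ISRE, had 56.8 ± 1.66 CPM (SD, n = 3) with vehicle and fell with anastrozole (-0.20 (adjusted p = 0.048)), E2 (-0.26 (adjusted p = 1.3e-04)) and both (-0.18 (adjusted p = 0.019)). IRF7, which drives interferon genes and is itself induced by interferon, fell with anastrozole (-0.47 (adjusted p = 0.0011)) and E2 (-0.44 (adjusted p = 1.3e-04)), and JAK1 rose with E2 (0.30 (adjusted p = 2.0e-18)) and anastrozole plus E2 (0.23 (adjusted p = 1.4e-08)).
Of 8 genes that restrain the pathway, 1 fell with anastrozole, 2 with E2 and 0 with both, and 0 rose. The shares of all genes were 2.27%, 5.95% and 2.33% that fell and 1.4%, 6.06% and 2.71% that rose. ADAR, an editor of double-stranded RNA, fell with anastrozole (-0.14 (adjusted p = 0.026)) and E2 (-0.12 (adjusted p = 0.002)), and IRF2BP1, a corepressor, fell with E2 (-0.25 (adjusted p = 0.017)). Among 11 sensor adaptors and kinases, 1 fell with anastrozole, 2 with E2 and 1 with both, and 0 rose. These counts stand against the same shares of all genes. MAVS, the adaptor of the RNA sensors, fell with E2 (-0.17 (adjusted p = 1.9e-04)). DHX58 (LGP2), a regulator of the RNA sensors, fell with all treatments, by log2 fold changes of -0.32 (adjusted p = 0.0022), -0.37 (adjusted p = 2.9e-07) and -0.23 (adjusted p = 0.0082). Of 33 further interferon-stimulated genes, 5 fell and 1 rose with anastrozole, 6 fell and 1 rose with E2 and 3 fell with anastrozole plus E2, against 2.27%, 5.95% and 2.33% of all genes that fell and 1.4% and 6.06% that rose with anastrozole and E2. HELZ2, a nuclear coactivator, fell from 149.9 ± 2.51 CPM to 103 ± 13.6 CPM with anastrozole (-0.55 (adjusted p = 7.4e-23)), 116 ± 3.86 CPM with E2 (-0.38 (adjusted p = 7.4e-18)) and 126 ± 3.04 CPM with both (-0.25 (adjusted p = 2.1e-07)). The anastrozole libraries of HELZ2 were spread widely, at 88.6, 104.8 and 115.5 CPM. SHISA5 fell with anastrozole (-0.22 (adjusted p = 0.0061)) and E2 (-0.15 (adjusted p = 0.012)), whereas B2M, the light chain of MHC class I, rose with anastrozole (0.13 (adjusted p = 0.046)) and E2 (0.21 (adjusted p = 3.1e-10)). IRF7, IRF9 and USP18 stand in 2 of these lists.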

How the data were processed

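RNA-seq libraries of T47D cells in 4 groups of 3 were analysed; the labels name polyA RNA, and the methods describe kits for total RNA. According to the submitters' processing notes, the authors used hg19 as the reference for alignment with TopHat2 2.0.14 and Bowtie2 2.2.6 and counted them per gene with HTSeq, and they deposited whole-number counts without normalization. The strand setting and the gene annotation are not given in the sources used here. The 5 summary lines of the table, which hold a median of 59.4% of reads in no annotated gene, were left out. Of the 25370 genes, 4238 without a single count were dropped.

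Pairs of groups were compared by edgeR's robust quasi-likelihood F test (edgeR 4.0.16 under R 4.3.3) on the 6 libraries concerned, after TMM scaling, and the interaction was tested on all 12. Tests were 2-sided, and p-values were adjusted over the 21132 remaining genes by the Benjamini-Hochberg method with 0.05 as the limit. All adjusted p-values printed come from these fits unless another tool is named. Standard errors were derived from the fold change and its F statistic, and the intervals are normal 95% intervals from it. The 42 genes, the other lists and the rule for naming genes were chosen with earlier results of these data known; the 24 genes given library by library are those called in the most comparisons and, in ties, with the largest changes against vehicle. In the lists of other pathway genes, 1 gene is not reported here. GENCODE release 44, in its version for GRCh37 (whose main chromosomes hg19 shares), gave positions, lengths and GC content, and DDX58 is listed there as RIGI.

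The alternatives were scaling by DESeq2's size factors, scaling by library size, edgeR's filterByExpr, DESeq2 1.42.0, limma-voom (limma 3.58.1), all 12 libraries in one fit, the replicate letter as a block, removal of each library's GC trend (lowess, span 0.5, genes of at least 3 log2 CPM), and each library left out. In counts simulated for anastrozole against vehicle over 19745 genes, the test recovered 32.8% of genes changed 1.25-fold, 94.0% of those changed 1.5-fold and 100% of those changed 2-fold. It made 6 false calls in the same simulation. The simulated counts had the same dispersion for every gene, no GC trend and no outlying library, and only genes above a minimum level were changed. These figures hold for that setting and not for genes of low level or for the spread of the real libraries.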

Additional observations from a re-analysis of the deposited data

Results flagged for a closer look

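The change with anastrozole differed between cells with and without E2 for 21 of the 42 genes, by the test of the interaction on all 12 libraries (edgeR's quasi-likelihood test, adjusted p under 0.05 over all genes tested, of which 5.93% passed in this direction). The value given for each gene is the log2 change with anastrozole in the presence of E2 minus the log2 change in its absence, so that a value above 0 means that the change in the presence of E2 lay above that in its absence. It was 1.57 for XAF1, which had between 5 and 34 counts per library, 0.84 for OAS2, 0.82 for MX1, 0.81 for ISG15, 0.73 for IFIT1, 0.68 for IFI27, 0.66 for IFITM3 and 0.64 for IFI6. It was 0.48 for OAS1, 0.47 for OAS3, 0.46 for IFITM1, 0.45 for PLSCR1 and 0.41 for IFIT5. It was 0.38 for IFITM2, 0.38 for PARP12, 0.36 for IFI35, 0.34 for DTX3L, 0.31 for BST2, 0.30 for LGALS3BP, 0.27 for TRIM25 and 0.23 for PARP14. IFI35, IFIT5, IFITM2, IFITM3, OAS1, PARP12 and PARP14 lost the call when some library was left out. With the GC trend removed, IFI35, IFITM1, IFITM2, IFITM3, LGALS3BP and PARP12 lost it, and the value of LGALS3BP was 0.09. The median over the 42 genes was 0.32, and that over all genes 0. The vehicle libraries behind the falls against vehicle also enter the interaction, so that it is not independent of those falls.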

How the results depend on the processing

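The direction of every call among the 42 genes stayed the same under every alternative that gave a value. For the genes of the marker and pathway lists no alternatives are given here. Of the calls of single genes, 758 were kept and 122 lost over the alternative settings and tests, and 611 were kept and 133 lost over the fits without 1 library. With DESeq2's test, 14 of the 42 genes were called with anastrozole (of the 25 called before, 10 had no adjusted p), 2 for anastrozole against E2, 0 for anastrozole plus E2 against E2 and 2 for anastrozole plus E2 against anastrozole. With limma-voom the numbers were 6 with anastrozole, 13 with E2, 8 with anastrozole plus E2, 2 for anastrozole against E2, 0 for anastrozole plus E2 against E2 and 1 for anastrozole plus E2 against anastrozole. Over all genes it called 15 with anastrozole and DESeq2's test 238, against 776 before. With E2 these numbers were 1379 and 1407, against 2537 before. With anastrozole plus E2 they were 347 and 476, against 1065 before. For anastrozole plus E2 against E2, 0 genes were called with all 12 libraries in one fit and 1 with the GC trend removed, alone or with the replicate block. Leaving out each library gave 21 to 24 genes with anastrozole, 16 to 19 with E2, 14 to 18 with anastrozole plus E2, 3 to 9 for anastrozole against E2, 0 to 1 for anastrozole plus E2 against E2, 2 to 10 for anastrozole plus E2 against anastrozole and 18 to 22 for the interaction. The cause of these differences was not tested. Deviations from the group means correlated between same-letter libraries with values between -0.20 and 0.18 over 18 pairs, 3 of them over 0.1, so the letters were not taken to pair the samples; with the replicate block, 26, 19, 20, 7, 2, 7 and 21 genes were called in the 7 comparisons (anastrozole, E2 and both against vehicle, anastrozole against E2, both against E2, both against anastrozole, interaction). Over all genes the replicate block gave 823, 2207, 1439, 180, 1487, 620 and 2218 calls in the same order. Depth limits IFI44L, CMPK2, TRIM22 and RSAD2, which had at most 22 counts in any library.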
